A study of Mus musculus with 6 samples.

Results

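Toll-like receptors (TLRs) and the proteins that chaperone them were examined in RNA-seq libraries of spleen cells from wild type (WT) and miR-144/451 knockout (KO) mice. The set held 10 of the 44678 deposited gene rows. They were chosen by symbol and not by their values, although earlier results of these data were known. The set comprised the receptors Tlr1, Tlr2, Tlr3, Tlr4, Tlr6, Tlr7 and Tlr9, the receptor homologue Cd180, and the chaperones Ly96 and Unc93b1. The sample records describe untreated CD8a+ leukocytes of the spleen, with 3 WT and 3 KO libraries. Both genotypes were C57BL/6J young adults. KO mice lacked in every cell a genomic segment that holds both microRNA precursors, so a difference cannot be assigned to a deletion within the sequenced cells, and WT mice came from a university animal centre and were not stated to be littermates. The study sequenced transcriptomes to look for genes through which the microRNAs might act on DC function.

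TLRs are membrane receptors that recognize conserved microbial molecules and, through adaptors such as MyD88, start cytokine and interferon responses. TLR1, TLR2, TLR4 and TLR6 act at the cell surface on lipoproteins and lipopolysaccharide, whereas TLR3, TLR7 and TLR9 act in endosomes on nucleic acids and reach them with the transmembrane chaperone UNC93B1. In the spleen they are best known from B cells, macrophages, neutrophils and dendritic cells (DCs), and TLR3 in particular from conventional type 1 DCs (cDC1), the splenic DCs that carry CD8a.

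Libraries totalled between 8143971 and 8876570 estimated counts per library. At these totals 3 counts equal 0.338 to 0.368 CPM, counts scaled to a common library size. This floor reflects counting error alone. Precursor genes Mir144 and Mir451a were listed at 0 in 6 of 6 libraries, in WT as well as KO, and the knockout was therefore not checked here against the labels. The labelled cell type was checked against markers. T cell markers were abundant, with Cd8a between 476.5 and 1041 CPM, but the B cell markers Cd79a and Cd22 were between 252.0 and 619.6 CPM and between 198.2 and 448.1 CPM, and no marker of the 9 cell types listed was at 0 in all libraries. RNA of B cell and myeloid marker genes was thus present in every library. Libraries WT1, KO1 and KO2 stood apart from the other 3: summed B cell markers were 2528, 2660 and 2926 CPM in them, against 1499, 1453 and 1256 CPM in WT2, WT3 and KO3. In bulk RNA, a lower number of cells of a type and less RNA per cell cannot be told apart.

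The mature strands that the deletion removes are shown because their seeds, bases 2 to 8 and written in capitals, set the letters searched for in the members. All 3 lie on chromosome 11, plus strand, and are RefSeq sequences on GRCm38.p6.
miR-144-5p, chr11:78073010-78073032: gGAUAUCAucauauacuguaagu
miR-144-3p, chr11:78073047-78073066: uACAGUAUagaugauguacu
miR-451a, chr11:78073186-78073207: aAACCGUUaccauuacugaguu

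Among the longest annotated 3′-UTRs of the 10 members (GENCODE M21, GRCm38), 2 held a match to a seed on the transcript strand. The letters searched were TGATATC for miR-144-5p, ATACTGT for miR-144-3p and AACGGTT for miR-451a, which occur in 5.58%, 13.4% and 1.91% of the 11550 3′-UTRs searched. The members' matches, in capitals with 8 bases on each side, were as follows.
Tlr2, miR-144-3p, chr3:83836295-83836301, minus strand: tgtcttgaATACTGTtatataaa
Tlr4, miR-451a, chr4:66841838-66841844, plus strand: ctgaactgAACGGTTtcttactt

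Each match lay in exon 3 of 3 of its transcript, at position 119 of the 148-nt 3′-UTR of Tlr2 and at position 359 of the 1321-nt 3′-UTR of Tlr4. Among 3′-UTRs within 20% of the same length, the same letters occurred in 2.59% of 347 for the Tlr2 match and in 2.12% of 1701 for the Tlr4 match. No member held the letters for miR-144-5p. A match of these letters is not evidence of a site in use, and a missing match says only that the letters are not in that 3′-UTR.

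Levels were first compared between the genes, per kilobase of merged exon (RPKM). Unc93b1 was the most abundant member, at 84.2 ± 15.4 RPKM in WT and 105.0 ± 35.5 in KO (SD, n = 3 each), followed by Tlr1 at 30.4 ± 3.21 in WT and 28.3 ± 1.96 in KO. Cd180 came next at 17.2 ± 5.41 and 19.3 ± 7.32 RPKM in WT and KO. The ranges of these 3 genes over the 6 libraries did not overlap, so their order was clear on merged exons. Tlr9 (11.0 ± 1.09 in WT and 14.02 ± 6.37 in KO) and Tlr7 (10.6 ± 2.92 and 12.4 ± 3.25) were not separable from each other, with Tlr9 the higher in 4 of 6 libraries. The range of Cd180 also overlapped that of Tlr9, although Cd180 was the higher in 6 of 6 libraries. Tlr2 stood alone on merged exons, at 4.65 ± 0.765 RPKM in WT and 6.62 ± 2.04 in KO. The lowest levels were those of Tlr6 (2.77 ± 0.463 and 2.68 ± 0.857 RPKM in WT and KO), Tlr3 (1.92 ± 0.215 and 2.62 ± 0.418), Tlr4 (1.64 ± 0.920 and 2.77 ± 1.03) and Ly96 (1.75 ± 0.454 and 1.69 ± 0.594). Each of these 4 overlapped its neighbour in the order, so no order among them is given. With the longest transcript in place of merged exons, 7 of the 10 genes kept their place by the mean of all libraries. On that length Tlr1 and Cd180 were at 33.6 and 29.3 RPKM in WT but at 31.3 and 32.8 RPKM in KO. The order of these genes therefore depends on the length used. Tlr4 moved from place 9 to place 7, at 2.24 ± 1.25 RPKM in WT and 3.78 ± 1.40 in KO. The separation of Tlr2 was checked on merged exons only.

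No member differed between KO and WT after adjustment over the 13024 genes tested. By the quasi-likelihood test of edgeR, Benjamini-Hochberg adjusted, 0 of 10 members were called, and 1, Tlr3, had an unadjusted p under 0.05. DESeq2 called 0, with 0 at an unadjusted p under 0.05, and limma voom called 0, with 1. Over all tested genes the same edgeR test called 4, or 0.0307% (0.0154% higher and 0.0154% lower in KO), and 6.25% had an unadjusted p under 0.05. The mean was higher in KO for 7 members and lower for 3, with a median log2 fold change of 0.27, while 50.6% of all tested genes had a log2 fold change above 0 and their median was 0.0030. All 4 endosomal members had a log2 fold change above 0 (median 0.33), against 3 of the 6 surface members (median 0.059). The WT and KO ranges were separate for 1 member, again Tlr3, and for 11.5% of all tested genes. The labels do not say whether the 3 libraries of a genotype came from separate mice, and if they did not, p-values measure only technical spread.

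**Figure D1:**
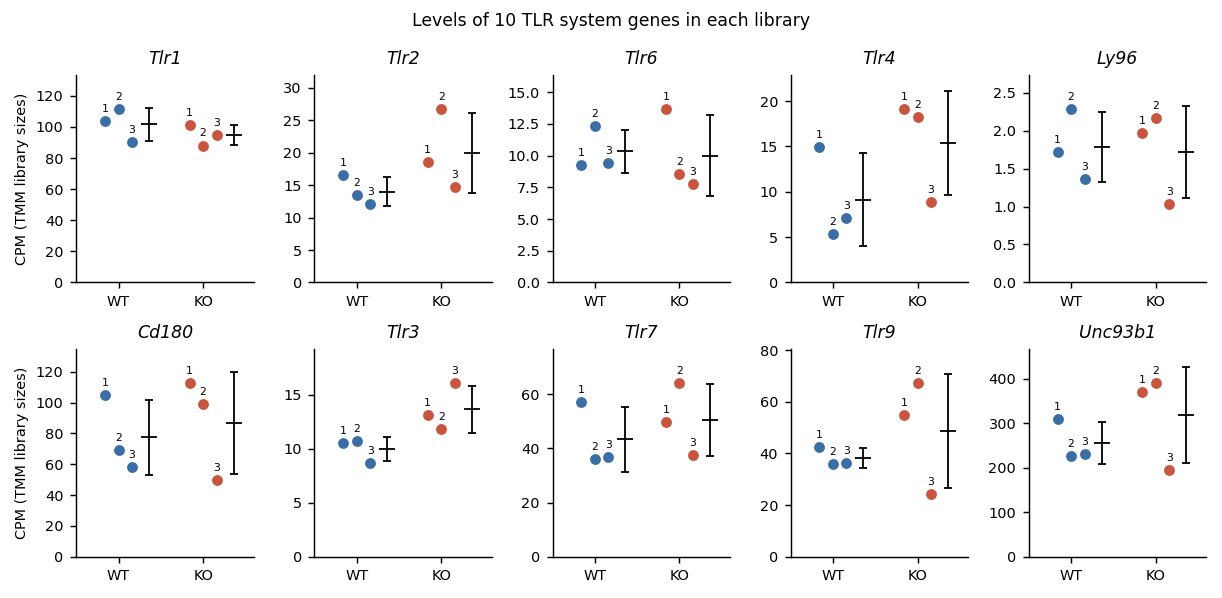
CPM on TMM library sizes (vertical axes, each from 0) of the 10 genes in the 3 WT and 3 KO libraries, with points numbered by replicate and bars giving the mean ± SD of each genotype. The WT and KO points overlap in every panel except Tlr3, where the KO libraries lie between 11.8 and 16.03 CPM and the WT libraries between 8.69 and 10.7 CPM.

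Among the surface receptors, Tlr1, whose product pairs with TLR2 to bind triacylated lipoproteins, was the most even member across libraries. It was measured at 103.5, 111.4 and 90.1 CPM in WT1, WT2 and WT3 and at 101.2, 88.1 and 94.7 CPM in KO1, KO2 and KO3. The groups overlapped, and the highest library was only 1.26 times the lowest. The log2 fold change, KO against WT, was -0.10 (SE 0.10, 95% interval -0.34 to 0.13; edgeR quasi-likelihood, Benjamini-Hochberg adjusted p = 0.872).

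Tlr6, whose product pairs with TLR2 to bind diacylated lipoproteins, had 9.24, 12.3 and 9.43 CPM in WT1 to WT3 and 13.7, 8.54 and 7.79 CPM in KO1 to KO3. KO1 was the highest and KO2 and KO3 the lowest of the 6 libraries, so the KO values enclosed all the WT values. KO against WT, this gave a log2 fold change of -0.048 (SE 0.26, 95% interval -0.64 to 0.55; edgeR quasi-likelihood, Benjamini-Hochberg adjusted p = 0.976).

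Values of Tlr1 and Tlr6 are not independent of each other, because the authors' counting divided reads between them. The genes lie on chromosome 5, minus strand, from 64924679 to 64933563 (Tlr1) and from 64952031 to 64960097 (Tlr6) on GRCm38. Of the words of 31 bases in their transcripts, 607 were shared, which is 18.27% of those of Tlr1 and 16.37% of those of Tlr6, and their longest identical run spanned 229 bases. A stretch of 30 bases from the middle of that run is shown as an example of sequence from which a read could not be assigned to either gene.
Tlr1 and Tlr6, identical stretch: acagcgggaaacaacccattccaatgcaca

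Both genes had fractional counts in 6 of 6 libraries, for example 906.875 for Tlr1 and 81.125 for Tlr6 in WT1, and in 4 libraries the 2 values summed to a whole number within 0.0015 counts. With the counts of both genes summed before the fit, the log2 fold change was -0.099 (SE 0.11). The level of Tlr6, the scarcer of the pair, depends most on how the shared reads were divided. Tlr2, Tlr7, Tlr9 and Unc93b1 shared 0 such words with another gene.

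Tlr2, the common partner of both, was measured at 16.5, 13.5 and 12.04 CPM in WT1 to WT3 and at 18.5, 26.7 and 14.7 CPM in KO1 to KO3. KO1 and KO2 lay above all WT libraries, whereas KO3 lay within their range. The log2 fold change was 0.51, or 1.42-fold (SE 0.24, 95% interval -0.043 to 1.06; edgeR quasi-likelihood, Benjamini-Hochberg adjusted p = 0.807).

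Tlr4, the lipopolysaccharide receptor, varied more than any other member, with the highest library at 3.56 times the lowest. It was measured at 14.95, 5.36 and 7.07 CPM in WT1 to WT3 and at 19.1, 18.3 and 8.82 CPM in KO1 to KO3. The high libraries were KO1, KO2 and WT1, so the genotypes overlapped. The log2 fold change was 0.75, or 1.68-fold, the highest of the 10 members (SE 0.42, 95% interval -0.22 to 1.72; edgeR quasi-likelihood, Benjamini-Hochberg adjusted p = 0.817).

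Ly96 encodes MD-2, the secreted protein that holds lipopolysaccharide on TLR4. It was close to the limit of what this depth can measure, with 15, 20 and 11 counts in WT1 to WT3 and 17, 18 and 9 counts in KO1 to KO3. These correspond to 1.79 ± 0.463 CPM in WT and 1.72 ± 0.606 CPM in KO (SD, n = 3 each). The lowest library was KO3 and the highest WT2. A difference was not detectable at this depth, and the interval was wide, from -1.01 to 0.89 around a log2 fold change of -0.059 (SE 0.41; edgeR quasi-likelihood, Benjamini-Hochberg adjusted p = 0.983).

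Cd180, a TLR homologue without a signaling domain of the TLR type that is best known from B cells, had 105.0, 69.3 and 58.3 CPM in WT1 to WT3 and 112.4, 99.0 and 49.7 CPM in KO1 to KO3. KO1, WT1 and KO2 were the high libraries and KO3 was the lowest. Its log2 fold change was 0.17 (SE 0.31, 95% interval -0.55 to 0.88; edgeR quasi-likelihood, Benjamini-Hochberg adjusted p = 0.93). Cd180 overlaps Mast4 on the opposite strand by 182 bases, 4.0% of its exon bases, and the use of strand in counting was not given in the sources used here.

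Among the endosomal members, Tlr3, the receptor for double-stranded RNA, was the only one whose KO libraries all lay above its WT libraries, as did 5.83% of all tested genes. It was measured at 10.5, 10.7 and 8.69 CPM in WT1 to WT3 and at 13.1, 11.8 and 16.03 CPM in KO1 to KO3. KO3 was the highest library, and the gap between the groups, from WT2 to KO2, was narrow. The log2 fold change was 0.45, or 1.37-fold (SE 0.19, 95% interval 0.020 to 0.88, unadjusted p = 0.0424; edgeR quasi-likelihood, Benjamini-Hochberg adjusted p = 0.786). At an unadjusted p under 0.05, 4.14% of all tested genes were higher in KO. Without KO3 the log2 fold change was 0.30 (unadjusted p = 0.171). Tlr3 overlaps Gm45542 on the opposite strand by 381 bases, 7.3% of its exon bases.

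The sum of the cDC1 markers was likewise separate between the genotypes, as was that of red pulp macrophage markers given below. Summed over the 7 markers listed, they were 588.9, 522.0 and 553.9 CPM in WT1 to WT3 and 773.9, 799.9 and 689.0 CPM in KO1 to KO3, with KO3 the lowest of the KO libraries. All 7 had a log2 fold change above 0 (median 0.48), 4 had an unadjusted p under 0.05 (beside 4.14% of all tested genes, higher in KO) and 3 had separate ranges (beside 5.83%). Wdfy4, needed for cross-presentation by cDC1 and the highest of them in CPM, had 368.1, 315.5 and 341.7 CPM in WT1 to WT3 and 501.7, 522.8 and 409.5 CPM in KO1 to KO3, and Itgax, which encodes CD11c, had between 104.6 and 148.4 CPM over the 6 libraries. Wdfy4 thus made up most of the sum in every library, and the sum rests largely on this gene. The separate ranges were those of Wdfy4, Cadm1 and Flt3, while those of Xcr1, Clec9a, Batf3 and Itgax overlapped. The markers did not share 1 order of libraries. KO3, the library highest in Tlr3, was also the highest in 3 of the 7: Xcr1 (33.7 CPM against 15.4 to 25.4 in the other 5), Clec9a (38.9 CPM against 16.8 to 24.2) and Flt3 (51.1 CPM against 31.8 to 44.6), which encode the chemokine receptor and the dead-cell receptor of cDC1 and a DC growth factor receptor. In the other 4, KO3 was the lowest KO library, as it was in the sum: Cadm1 had 53.8, 46.0 and 39.5 CPM in KO1 to KO3, Batf3 had 8.10, 9.74 and 8.02 CPM, and Wdfy4 and Itgax ran the same way. Per 1000 CPM of summed cDC1 markers, Tlr3 stood at 17.8, 20.6 and 15.7 in WT1 to WT3 and at 16.9, 14.7 and 23.3 in KO1 to KO3, which overlapped. Tlr11, a receptor for protozoan profilin, and Rab7b, a small GTPase of late endosomes, had the same order of KO libraries as Tlr3, as given below. Tlr11, Rab7b and the cDC1 markers other than Wdfy4 and Itgax were named after their values were seen. With the mean log2 CPM of the cDC1 markers in the fit, the log2 fold change of Tlr3 was 0.057 (SE 0.72, unadjusted p = 0.939). In that fit 5 other members had an unadjusted p under 0.05, with log2 fold changes from 1.92 for Tlr7 to 2.54 for Tlr9 and standard errors of up to 0.94, as had 1851 of the 13024 genes tested. That covariate did not overlap between the genotypes, so cDC1 content and genotype cannot be told apart for Tlr3.

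**Figure D2:**
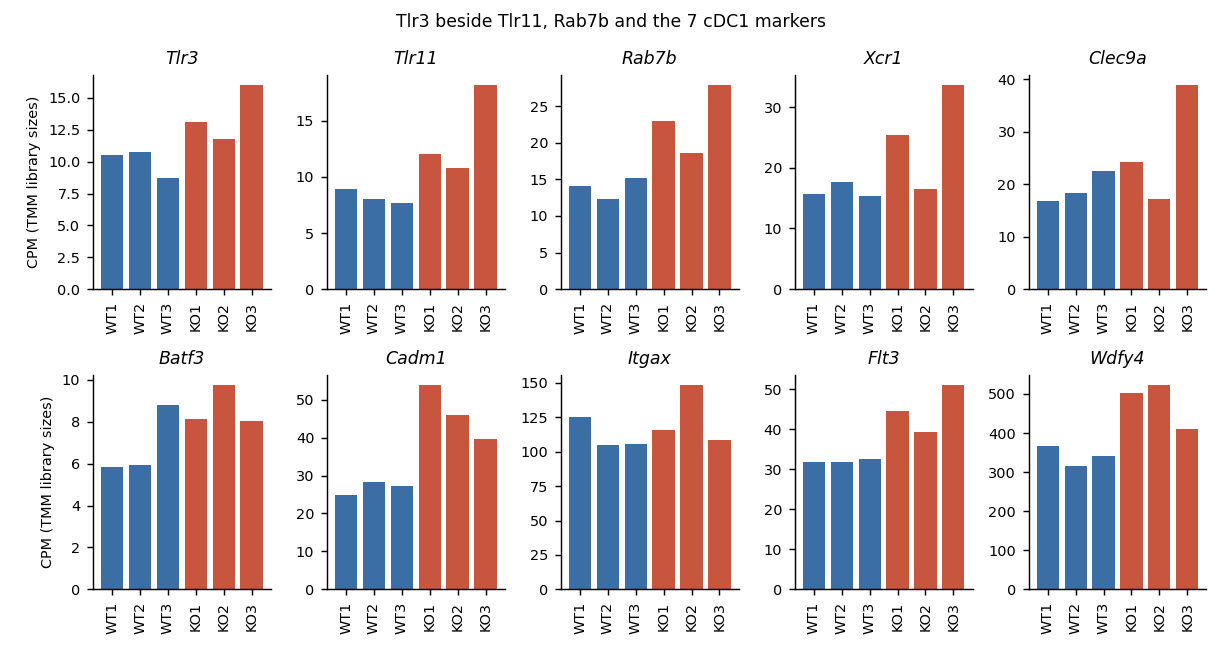
CPM on TMM library sizes (vertical axes, each from 0) of Tlr3, Tlr11, Rab7b and the 7 cDC1 markers listed, with 1 bar for each library, blue for WT and red for KO. KO3 is the highest library for Tlr3 (16.03 CPM), Tlr11, Rab7b, Xcr1, Clec9a and Flt3, and the lowest KO library for Batf3, Cadm1, Itgax and Wdfy4.

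Tlr7, the receptor for single-stranded RNA, was measured at 57.1, 36.2 and 36.7 CPM in WT1 to WT3 and at 49.8, 64.0 and 37.5 CPM in KO1 to KO3. WT1 lay among the KO values and KO3 among the WT values. Its log2 fold change was 0.22 (SE 0.23, 95% interval -0.32 to 0.76; edgeR quasi-likelihood, Benjamini-Hochberg adjusted p = 0.879).

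Tlr9, the receptor for unmethylated CpG DNA, differed in its spread: WT libraries had 42.7, 35.9 and 36.2 CPM, and KO1 to KO3 had 55.0, 67.1 and 24.2 CPM. KO1 and KO2 were above all WT libraries and KO3 was below all of them. KO against WT, the log2 fold change was 0.35 (SE 0.32, 95% interval -0.38 to 1.07; edgeR quasi-likelihood, Benjamini-Hochberg adjusted p = 0.870).

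Unc93b1, the chaperone of the endosomal receptors, behaved in the same way, with 309.2, 225.9 and 230.8 CPM in WT1 to WT3 and 370.4, 389.5 and 194.6 CPM in KO1 to KO3. KO1 and KO2 were again the 2 highest libraries and KO3 the lowest. This gave a log2 fold change of 0.32 (SE 0.25, 95% interval -0.26 to 0.90; edgeR quasi-likelihood, Benjamini-Hochberg adjusted p = 0.859).

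Several of these differences changed in size when 1 library was left out. Without KO3, the log2 fold change was 0.65 for Tlr9 (unadjusted p = 0.0011) and 0.55 for Unc93b1 (unadjusted p = 0.0062). It was 0.67 for Tlr2 (unadjusted p = 0.0149) and 1.01 for Tlr4 (unadjusted p = 0.0284). These 4 members had an unadjusted p under 0.05 by edgeR's quasi-likelihood test without KO3, as had 1869 of the 13302 genes tested. In that fit the lowest Benjamini-Hochberg adjusted p of a member by edgeR's quasi-likelihood test was 0.0902, for Tlr9, and the number of all genes called went from 4 to 94. Without KO2, in contrast, the log2 fold change was 0.047 for Tlr9, 0.0088 for Tlr7, 0.15 for Unc93b1 and 0.24 for Tlr2. Tlr4 ranged from 0.48 without WT2 to 1.31 without WT1 (unadjusted p = 0.0094; edgeR quasi-likelihood, Benjamini-Hochberg adjusted p = 0.4985), and Tlr7 reached 0.46 without WT1. No member was called when any 1 of the 6 libraries was left out.

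Across the 6 libraries, 6 members (Tlr2, Tlr4, Cd180, Tlr7, Tlr9 and Unc93b1) had each of WT1, KO1 and KO2 above each of WT2, WT3 and KO3, a pattern noticed after the values were seen and shared by 13.8% of all tested genes. The same 3 libraries were the highest in 7 of 7 B cell markers, 5 of 5 neutrophil markers and 5 of 6 monocyte and macrophage markers. They were also the highest in 3 of 4 red pulp macrophage, 2 of 4 natural killer cell and 2 of 5 plasmacytoid DC markers. For T cell, cDC1 and erythroid markers this held in 1 of 8, 1 of 7 and 0 of 6. Summed neutrophil markers, led by S100a9 and S100a8, were 879.0, 899.8 and 1069 CPM in WT1, KO1 and KO2 and 263.6, 216.9 and 343.3 CPM in WT2, WT3 and KO3. Summed monocyte and macrophage markers were 1687, 1690 and 1829 CPM in the first 3 and 1046, 1134 and 1081 CPM in the others. Lyz2 and Ly6c2 had the highest CPM in that list, and Ly6c2 was the exception among the 6, with 542.0 CPM in KO3 and 295.3 CPM in KO2 as its extremes. T cell markers, led by Cd8a and Lck, took the opposite course in sum, from 2023 CPM in KO2 to 3863 CPM in WT2. Cd4, named after its values were seen, was the exception among the 8, with 67.4, 75.5 and 71.8 CPM in WT1, KO1 and KO2 and 36.6, 34.6 and 28.7 CPM in WT2, WT3 and KO3. Summed red pulp macrophage markers, led by Hmox1 and Vcam1, ranged from 270.3 to 421.3 CPM in WT and from 424.4 to 1102 CPM in KO, so that this sum, like that of cDC1, did not overlap between the genotypes. All 4 of these markers had an unadjusted p under 0.05, as had 4 of the 7 cDC1 markers and 4.14% of all tested genes (higher in KO), with a median log2 fold change of 1.27 against 0.48 for cDC1 markers. Of either list 0 passed the adjusted threshold of edgeR's quasi-likelihood test. The sums ranged from 75.6 to 224.7 CPM in WT and from 111.5 to 204.4 CPM in KO for natural killer cell markers (Gzma and Klrb1c leading), from 235.4 to 793.7 and from 426.2 to 2570 CPM for erythroid markers (Hbb-bs and Hba-a2 leading), and from 261.2 to 266.5 and from 257.1 to 274.9 CPM for plasmacytoid DC markers (Bst2 and Ccr9 leading).

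**Figure D3:**
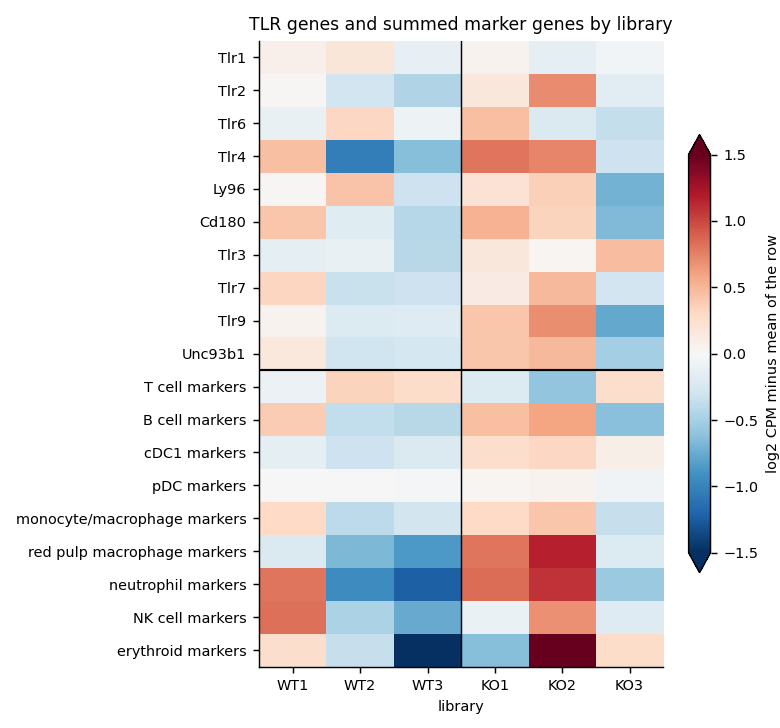
Log2 CPM minus the mean of the row (colour) in the 6 libraries (columns) for the 10 genes and, below the horizontal line, for the summed markers of 9 cell types. Tlr2, Tlr4, Cd180, Tlr7, Tlr9 and Unc93b1 share with the B cell, neutrophil and monocyte rows their higher values in WT1, KO1 and KO2, while Tlr3 is highest in KO3.

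Relative to a marker sum, several members were nearly level. Each member was divided by each of the 9 sums, and the sum that left the smallest spread is given here as a description. Tlr7 per 1000 CPM of monocyte and macrophage markers was 33.8, 34.6 and 32.4 in WT1 to WT3 and 29.5, 35.0 and 34.7 in KO1 to KO3. Its ratio of the highest to the lowest library was 1.19, against 1.77 before division. Unc93b1 was similar, with a ratio of 1.22 after division by monocyte and macrophage markers and 1.30 by B cell markers, against 2.002 before. A large part of the monocyte and macrophage sum was Ly6c2, which did not follow the other 5 markers of that list. It made up 542.0 of 1081 CPM in KO3 and 295.3 of 1829 CPM in KO2. Ratios by this sum, also that of Tlr2 below, therefore do not stand for those 5 markers. They were not computed without Ly6c2. Cd180 per 1000 CPM of B cell markers stood at 41.5, 46.2 and 40.1 in WT1 to WT3 and at 42.3, 33.8 and 39.6 in KO1 to KO3, with a ratio of 1.37 against 2.26 before. Tlr9 was most even by B cell markers (1.48 against 2.78), Tlr2 by monocyte and macrophage markers (1.49 against 2.22) and Tlr4 by neutrophil markers (1.92 against 3.56). Tlr3 was most even by cDC1 markers (1.58 against 1.85). For Tlr1, Tlr6 and Ly96 the smallest ratio came from the plasmacytoid DC sum, which itself varied only 1.07 times, and was 1.31, 1.67 and 2.15 against 1.26, 1.75 and 2.21 before. That sum joined markers of opposite course, so its evenness is not that of each marker. Ccr9 had 87.4 CPM in WT2 and 45.5 in KO2, whereas Tcf4, named after its values were seen, had 45.1 and 87.3 CPM.

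Fitting the genotype together with the mean log2 CPM of B cell, cDC1 and monocyte/macrophage markers moved the members differently. Cd180 changed to a log2 fold change of -0.47 (SE 0.13, unadjusted p = 0.0052; edgeR quasi-likelihood, Benjamini-Hochberg adjusted p = 0.3675), Tlr9 to -0.34 (SE 0.20), Unc93b1 to -0.22 (SE 0.11) and Tlr7 to -0.19 (SE 0.13). Tlr4 moved to 0.016 (SE 0.23) and Tlr2 to 0.14 (SE 0.21). Tlr3 stood at 0.57 (SE 0.21, unadjusted p = 0.0237; edgeR quasi-likelihood, Benjamini-Hochberg adjusted p = 0.628) with this covariate, but at 0.057 with the covariate of cDC1 markers alone, as given above. The signs of the differences of Cd180, Tlr7, Tlr9 and Unc93b1 therefore depended on which markers were in the fit, since all 4 stayed above 0 with cDC1 markers alone, and none of them passed the adjusted threshold in any of these fits.

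**Figure D4:**
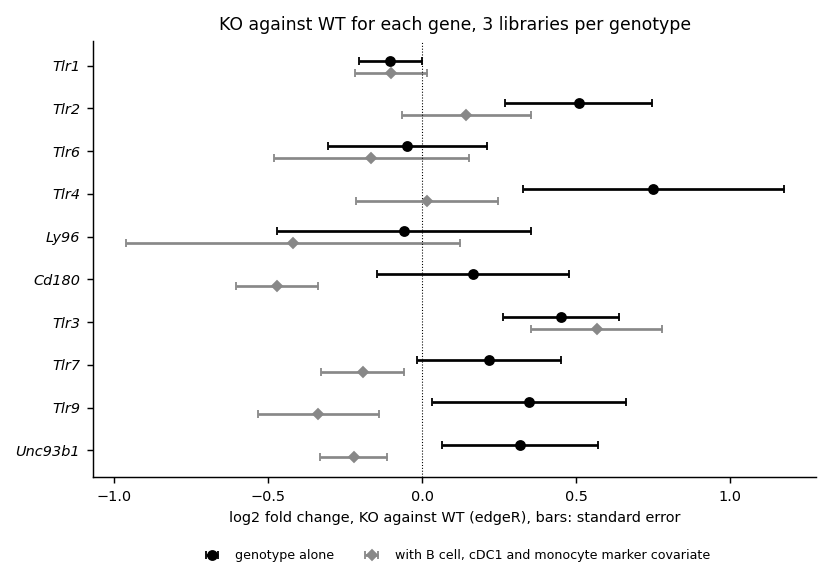
Log2 fold change, KO against WT, of each gene by edgeR (horizontal axis), with bars giving the standard error, for the genotype alone (black circles) and with the B cell, cDC1 and monocyte marker covariate (grey diamonds). Cd180, Tlr7, Tlr9 and Unc93b1 change sign with the covariate, Tlr4 moves from 0.75 to 0.016 and Tlr3 from 0.45 to 0.57.

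Genes whose profile over the 6 libraries was closest to a member were found by the root mean square (RMS) difference of centred log2 CPM, among genes with a mean log2 CPM of at least 1. The closest to Cd180 were Cr2 (0.053), the complement receptor of B cells, H2-Eb2 (0.077) and Scn4a (0.084), beside an RMS of 0.45 of Cd180 about its own mean. The closest to Tlr9 were Gm15411 (0.054), the immunoglobulin segment Ighv1-59 (0.073) and Pik3c2b (0.086), beside 0.47 for Tlr9 itself. Tlr7 was closest to Bst1 (0.023), Tspan2 (0.039) and Cobll1 (0.043), and Unc93b1 to Gga2 (0.026), Prr5 (0.042) and Lyl1 (0.045). Tlr2 was closest to Cd36 (0.061), the fatty acid receptor that assists TLR2 with TLR6, then to Slc25a37 (0.071) and Alpk1 (0.074). Tlr4 was closest to the cytokine gene Il18 (0.109), Pilrb2 (0.120) and Klri2 (0.121). Relative to its own spread Tlr3 had the most distant closest match of the 10 members, with Zfp54 (0.088), Gm11110 (0.091) and BC055324 (0.091) beside its own RMS of 0.27. The least variable member, Tlr1, was closest to Myef2 (0.030), Cops6 (0.032) and Ofd1 (0.039), Tlr6 to Aldh1b1 (0.070), Bloc1s3 (0.095) and Tab1 (0.098), and Ly96 to Med18 (0.079), Gm20628 (0.133) and Sox12 (0.134). No member was among the 3 closest genes of another.

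The other genes of the TLR system were read from the same fit in 5 lists. Of 44 listed genes, all 44 were tested and 0 were called by the quasi-likelihood test of edgeR, Benjamini-Hochberg adjusted. At an unadjusted p under 0.05 there were 4 (3 higher and 1 lower in KO, beside 6.25% of all tested genes), DESeq2 called 0 with 3 at an unadjusted p under 0.05, and limma voom called 0 with 4. The log2 fold change was above 0 for 34 and below 0 for 10, with a median of 0.18, beside 50.6% above 0 over all tested genes. WT1, KO1 and KO2 lay above the other 3 libraries in 21 of the 44, beside 13.8% of all tested genes.

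Of the 5 other receptors, Tlr11 had 8.90, 7.99 and 7.69 CPM in WT1 to WT3 and 12.04, 10.8 and 18.2 CPM in KO1 to KO3. Its ranges were separate, with a log2 fold change of 0.74 (SE 0.23; edgeR quasi-likelihood, Benjamini-Hochberg adjusted p = 0.712). Tlr12, its partner in sensing profilin, had a log2 fold change of -0.31 (SE 0.27), and its lowest library was KO2 at 16.6 CPM. Tlr13, a receptor for bacterial ribosomal RNA, had a log2 fold change of 0.21 (SE 0.35), with KO2, WT1 and KO1 as its highest libraries.

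The 7 listed partners and chaperones had a median log2 fold change of 0.14. Hsp90b1, the endoplasmic reticulum chaperone that folds most TLRs, had 394.6, 331.6 and 353.3 CPM in WT1 to WT3 and 327.4, 455.2 and 389.5 CPM in KO1 to KO3 (log2 fold change 0.12, SE 0.13). Its cofactor Cnpy3 had a log2 fold change of 0.14 (SE 0.16). Both overlapped between the genotypes. Ly86, which encodes the partner of CD180 and was named after its values were seen, had 67.9, 32.3 and 29.5 CPM in WT1 to WT3 and 59.0, 69.8 and 29.1 CPM in KO1 to KO3, high in the same 3 libraries as Cd180.

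Of the 12 genes of endosomal processing and transport, 11 had a log2 fold change above 0 (median 0.22). The lysosomal protease Ctsb had 554.9, 392.8 and 431.8 CPM in WT1 to WT3 and 780.0, 1028 and 479.1 CPM in KO1 to KO3 (log2 fold change 0.73, SE 0.26; edgeR quasi-likelihood, Benjamini-Hochberg adjusted p = 0.751), and the protease Ctss, which cleaves endosomal TLRs, had a log2 fold change of 0.17 (SE 0.21). Rab7b had 14.03, 12.3 and 15.3 CPM in WT1 to WT3 and 22.9, 18.6 and 27.9 CPM in KO1 to KO3, with a log2 fold change of 0.74 (SE 0.18, unadjusted p = 0.0035; edgeR quasi-likelihood, Benjamini-Hochberg adjusted p = 0.5465). Ctsb was thus highest in the libraries high in Unc93b1, KO1 and KO2, whereas Rab7b was highest in KO3, as was Tlr3.

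The 15 adaptors, kinases and transcription factors had a median log2 fold change of 0.12, with 13 above 0. Those with the highest mean CPM, a scale without gene length, were Irak1, a kinase downstream of MyD88 (log2 fold change 0.068, SE 0.086), and Traf3, a ubiquitin ligase of the interferon branch (0.12, SE 0.086). Irf3, the interferon regulator downstream of TLR3, had 104.6, 99.6 and 101.0 CPM in WT1 to WT3 and 86.7, 93.6 and 90.1 CPM in KO1 to KO3 (log2 fold change -0.17, SE 0.074, unadjusted p = 0.0465; edgeR quasi-likelihood, Benjamini-Hochberg adjusted p = 0.786). It had separate ranges with KO lower, as did 5.64% of all tested genes, and was named after its values were seen. Sarm1, an adaptor gene of the same list likewise named after its values were seen, had separate ranges with KO higher, at 1.48, 0.685 and 1.36 CPM in WT1 to WT3 and 1.74, 2.17 and 2.29 CPM in KO1 to KO3 (log2 fold change 0.80, SE 0.40; edgeR quasi-likelihood, Benjamini-Hochberg adjusted p = 0.8165). Of the 5 negative regulators, 4 had a log2 fold change below 0, among them the deubiquitinase gene Tnfaip3 (-0.062, SE 0.16) and the adaptor gene Tollip (-0.098, SE 0.082).

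**Figure D5:**
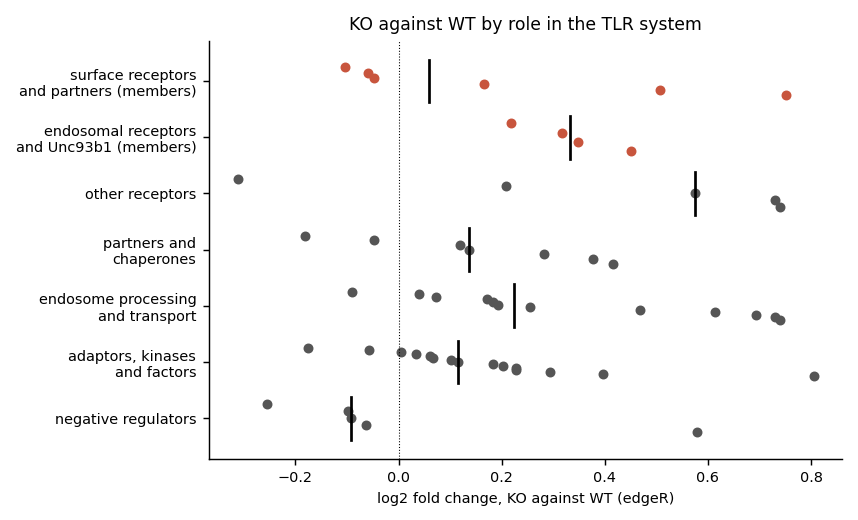
Log2 fold change, KO against WT, by edgeR (horizontal axis) of the 10 members (red points, in 2 rows) and of the 44 other genes of the TLR system (grey points, in 5 rows), with a black line at the median of each row. The medians run from -0.091 for negative regulators to 0.57 for the other receptors, and no point passed the adjusted threshold.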

How the data were processed

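RNA-seq libraries of CD8a+ spleen leukocytes from WT and KO mice (3 each) were analysed. Expected counts, 1 value for each Ensembl gene, were deposited by the authors. They are not normalized and need not be whole. The unit was read from the values (3527 to 4925 genes per library held fractions). The aligner, counting program and strand setting are not given in the sources used here. The submitters' processing notes name GRCm38 and mm10. Counts were rounded and fitted in R 4.3.3 with edgeR 4.0.16 (TMM, filterByExpr with minimum count 10 and minimum total 15, quasi-likelihood test, Benjamini-Hochberg adjustment over 13024 genes, threshold 0.05). CPM used TMM library sizes. RPKM used merged exon lengths of GENCODE M21 on GRCm38, which held 44121 of the 44678 identifiers. The procedure was tested on simulated data.

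Libraries of 1 genotype differed beyond sampling noise (chi-square per degree of freedom 6.41 to 23.7), so all 6 were kept. Members and gene lists were chosen with earlier results of these data known. The rule for naming genes took all members, the 2 genes of highest mean CPM and any called gene of each TLR list, the 2 markers of highest mean CPM of each cell type, the 3 genes closest in profile to each member, and Mir144 and Mir451a. Alternatives were other normalizations and filters, DESeq2 1.42.0, limma 3.58.1 (voom), marker covariates, a replicate block, a sum of Tlr1 and Tlr6, and each library left out. The cDC1 covariate and the Tlr1 and Tlr6 sum were chosen after seeing the data. Promoters and proteins were not used here.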

Additional observations from a re-analysis of the deposited data

How the results depend on the processing

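Under 17 alternative settings no member and no other listed gene of the TLR system was called. Of 169 recomputed member fold changes, 19 had the opposite sign. With the B cell, cDC1 and monocyte covariate these were Cd180 (-0.47), Tlr7 (-0.19), Tlr9 (-0.34) and Unc93b1 (-0.22), and with a T cell covariate Tlr6 (0.015), Cd180 (-0.34), Tlr7 (-0.24), Tlr9 (-0.35) and Unc93b1 (-0.19). With a cDC1 covariate, added after seeing the data, they were Tlr1 (0.015), Tlr6 (0.13) and Ly96 (2.15), while Tlr3 moved from 0.45 to 0.057 and Tlr2 (2.37), Tlr4 (2.84), Cd180 (2.23), Tlr7 (1.92), Tlr9 (2.54) and Unc93b1 (1.98) moved up, with large errors since the covariate did not overlap between genotypes. Leaving out 1 library gave ranges of -0.36 to 0.097 for Tlr6, -0.25 to 0.18 for Ly96 and -0.080 to 0.45 for Cd180. It kept the sign of the other members, with ranges of -0.20 to -0.034 for Tlr1, 0.24 to 0.67 for Tlr2, 0.30 to 0.54 for Tlr3, 0.48 to 1.31 for Tlr4, 0.0088 to 0.46 for Tlr7, 0.047 to 0.65 for Tlr9 and 0.15 to 0.55 for Unc93b1.

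Genes called over the whole table numbered 4, against 12 without a filter on low counts, 58 with DESeq2, 10 with the B cell, cDC1 and monocyte covariate, 0 with the cDC1 covariate (1851 at an unadjusted p under 0.05, edgeR) and 2 (without WT1 or without WT3) to 94 (without KO3) with 1 library left out. DESeq2 called 53 higher and 5 lower in KO, and edgeR without KO3 called 86 higher and 8 lower. The causes were not tested. With the replicate block 9 genes were called. Same-numbered libraries correlated at -0.013, -0.179 and 0.092, so the numbers are not taken to pair them, and the block changed no call of a member. Depth limits Ly96, at 9 to 20 counts per library.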
